A study of Mus musculus with 12 samples.

Results

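The 10 genes described here, known to be induced when cells lack oxygen, were followed in mouse embryonic fibroblasts with and without the DGAT enzymes, before and after adipogenic differentiation. The genes are Egln3, Egln1, Bnip3, Bnip3l, Ndrg1, Ankrd37, P4ha1, P4ha2, Adm and Ddit4, that is 10 of the 19938 genes measured. The set was chosen by the measured response to differentiation: Egln3 and Bnip3 responded differently in the genotypes. Each gene was read from the probe set with the highest mean over all samples, among the probe sets annotated to that gene alone. The values of Egln3 and Bnip3, and every value of the difference between the responses, were therefore used to choose the genes and are given as a description without a test. The other 8 genes were tested in the comparisons between groups.

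In all, 4 groups of 3 samples were measured on single-colour, biotin-labelled expression arrays. All 12 samples were embryonic fibroblasts of C57BL6 origin, taken at embryonic day 14 and grown in DMEM with 10% fetal bovine serum. The groups were D1D2KO differentiated, WT differentiated, D1D2KO undifferentiated and WT undifferentiated cells, of which the labels call the differentiated ones adipocytes and the others fibroblasts. D1D2KO stands for deficiency of DGAT1 and DGAT2, the enzymes that make triacylglycerol from diacylglycerol, as the series title and the labels imply. Differentiation started 2 days after confluence with 1 µM dexamethasone, 500 µM isobutylmethylxanthine, 5 µg/ml insulin and 15 µM troglitazone for 2 to 3 days, continued with insulin and troglitazone alone for 2 days, and ended in normal medium. Undifferentiated cells did not receive these agents, so each effect of differentiation is that of the whole treatment and of the time it took. The labels call the samples biological replicates but do not tie them to embryos or cultures, and the p-values below cover only how much these samples vary. The labels name no oxygen treatment, and protein levels of the hypoxia-inducible factors were not measured here.

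As background, the hypoxia-inducible factors are transcription factors whose alpha subunits are hydroxylated on prolines by the EGLN enzymes while oxygen is present, and are then bound by the VHL ubiquitin ligase and degraded. When oxygen is scarce, or the hydroxylases are slowed for other reasons, the alpha subunits persist, pair with ARNT and switch on genes through a short response element with the core ACGTG or GCGTG. Their targets include the hydroxylases Egln1 and Egln3 themselves, which form a feedback loop, mitophagy receptors, glycolysis enzymes and collagen-modifying enzymes. In adipose tissue and cultured adipocytes, hypoxia-inducible factors are known for controlling glucose use and matrix and angiogenic genes.

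The promoters of Egln3, Bnip3 and Ankrd37 are shown. Among the 10 genes, Egln3 and Bnip3 carry the widest differences between the genotypes in undifferentiated cells. The call of Ankrd37 as lower in undifferentiated D1D2KO cells, like that of P4ha2, held in every setting tried. Each line is the 250 bases before the gene's start, 5′ to 3′ on the coding strand, from RefSeq on GRCm38.p6, with ACGTG and GCGTG on either strand (CACGT and CACGC on the printed one) in capitals. Egln3 lies at chr12:54203875-54204124, Bnip3 at chr7:138909507-138909756 and Ankrd37 at chr8:45999851-46000100, all on the minus strand.
Egln3: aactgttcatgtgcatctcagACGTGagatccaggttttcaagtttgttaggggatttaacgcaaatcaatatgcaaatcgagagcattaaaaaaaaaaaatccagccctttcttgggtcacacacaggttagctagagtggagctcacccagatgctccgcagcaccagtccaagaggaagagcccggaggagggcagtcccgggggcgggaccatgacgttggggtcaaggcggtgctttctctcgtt
Bnip3: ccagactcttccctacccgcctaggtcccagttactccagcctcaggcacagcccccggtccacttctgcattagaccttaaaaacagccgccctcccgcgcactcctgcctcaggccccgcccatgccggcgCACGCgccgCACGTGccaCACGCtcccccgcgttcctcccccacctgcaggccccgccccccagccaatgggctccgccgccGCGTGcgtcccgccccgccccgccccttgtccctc
Ankrd37: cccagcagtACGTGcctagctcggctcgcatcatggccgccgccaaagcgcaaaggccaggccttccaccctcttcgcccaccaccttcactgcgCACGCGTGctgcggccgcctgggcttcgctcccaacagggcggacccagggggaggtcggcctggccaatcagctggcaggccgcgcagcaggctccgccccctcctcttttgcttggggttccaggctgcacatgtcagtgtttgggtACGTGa
Over the window from 250 bases before to 50 bases after the start, Egln3 held 1 match, 229 bases before the start, in a window part with 50.8% G and C. Bnip3 held 5 matches, the farthest 117 and the nearest 35 bases before the start, and 2 of them are one CACGTG read on both strands. Ankrd37 held 4 matches, of which 2 overlap, and the nearest began 6 bases before the start. Promoter entries were given for 8 of the 10 genes, and all 8 held at least 1 match: P4ha2 had 4, P4ha1 had 3, and Egln1, Adm and Ddit4 had 2 each. Of all 32851 promoter windows of the same length, 43.8% held a match, and the G and C content of the 250 bases ran from 50.8% in Egln3 to 86.0% in Egln1, against a median of 52.4% over all promoters. A match describes these letters only and is not evidence of binding. Bnip3l and Ndrg1 have no entry in the promoter table.

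Dgat1 and Dgat2 were measured first as a check of the labels. Dgat1 averaged 8.02 in D1D2KO differentiated cells and 9.41 in WT differentiated cells on the log2 signal scale, and 5.61 in D1D2KO undifferentiated cells against 6.95 in WT undifferentiated cells. Dgat2 averaged 8.55 in D1D2KO differentiated cells and 10.22 in WT differentiated cells, and 5.48 in D1D2KO undifferentiated cells against 5.96 in WT undifferentiated cells. Every D1D2KO sample was below every WT sample of the same state for both genes, and limma adjusted p lay between 3.53e-07 and 0.0345. Where the probe sets lie relative to the deleted parts is not known here. The adipocyte markers rose in both genotypes, 12 of the 12 measured, in the labelled adipocytes. Of all genes 15.4% rose in D1D2KO and 14.7% in WT cells. No marker of the listed cell types was below the lower quartile of signal, 4.10 on the array where it was lowest, on every array. Passing this low cutoff does not show that a cell type was present. The summed linear signal of 8 muscle markers was 7858 to 8977 in D1D2KO undifferentiated cells and 11940 to 12527 in WT undifferentiated cells, and 4208 to 4460 in D1D2KO differentiated cells against 8820 to 9617 in WT differentiated cells. Of the 8, 5 were called lower and 2 higher in D1D2KO undifferentiated cells. Among the lower ones, Myh11 differed by -2.39 and Cnn1 by -1.64 (limma adjusted p = 5.39e-11 and 2.02e-07). Among the higher ones, Actc1, a cardiac actin, differed by 1.22 (limma adjusted p = 4.39e-05). Among all genes 3.62% were called lower and 4.4% higher there. The summed signal of the adipocyte markers was 29642 to 34191 in D1D2KO differentiated cells and 24020 to 27793 in WT differentiated cells, and 1812 to 1920 in D1D2KO undifferentiated cells against 1854 to 1976 in WT undifferentiated cells. Single adipocyte markers differed before differentiation: Fabp4, a fatty acid binding protein, was 1.20 lower and Adipoq, adiponectin, 0.97 lower in D1D2KO undifferentiated cells (limma adjusted p = 8.83e-06 and 8.43e-05), and these were the 2 of 12 called there. In differentiated cells limma called 8 of the 12 higher in D1D2KO and 0 lower, with a median of 0.35. That count of 8 ranged from 1 to 8 without single samples, and 6.25% of all genes were called higher there. Fibroblast marker sums were 20687 to 22723 in D1D2KO differentiated and 25806 to 27433 in WT differentiated cells, and 36114 to 37111 in D1D2KO undifferentiated and 36007 to 36232 in WT undifferentiated cells. Macrophage marker sums were 3979 to 4109 in D1D2KO differentiated and 4178 to 4620 in WT differentiated cells, and 8830 to 9338 in D1D2KO undifferentiated and 9296 to 9719 in WT undifferentiated cells. Because the arrays measure whole cultures, fewer cells of a type and less RNA per cell cannot be told apart. The part of these marker differences in the results that follow was not tested.

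Egln3, the prolyl hydroxylase that is itself strongly induced by hypoxia, had a wider genotype difference before differentiation than after it. Its log2 signals were 10.78, 10.86 and 10.87 in D1D2KO differentiated cells and 10.38, 10.33 and 10.74 in WT differentiated cells. In undifferentiated cells they were 6.37, 6.64 and 6.10 in D1D2KO and 7.87, 7.89 and 7.76 in WT. The undifferentiated groups did not overlap, with D1D2KO lower, and the differentiated groups did not overlap either, with D1D2KO higher. The D1D2KO differentiated mean was 10.84 ± 0.05 against 10.48 ± 0.22 in WT differentiated cells, and the D1D2KO undifferentiated mean was 6.37 ± 0.27 against 7.84 ± 0.07 in WT undifferentiated cells (SD, n = 3 each). The differentiated signal was 22.1 times the undifferentiated one in D1D2KO cells and 6.25 times in WT cells, log2 differences of 4.47 and 2.64 (SE 0.12 each). The difference between these responses was 1.82 (SE 0.17), and 80.6% of it came from the undifferentiated state, where D1D2KO cells were 1.47 lower than WT cells on the log2 scale, or 36.1% of the WT signal. The other part was a signal 0.35 higher in D1D2KO than in WT differentiated cells. Without any 1 of the 12 samples, the difference between the responses lay between 1.69 and 1.96. This contrast chose the gene, so that range is a description too.

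Egln1, the main hydroxylase that acts on the hypoxia-inducible factors under normal oxygen, was lower in D1D2KO than in WT undifferentiated cells, by less than Egln3, and close in both genotypes after differentiation. Its signals were 9.10, 9.18 and 9.27 in D1D2KO differentiated cells and 9.11, 9.21 and 9.36 in WT differentiated cells. In undifferentiated cells the signals were 7.89, 8.03 and 7.92 in D1D2KO and 8.23, 8.34 and 8.18 in WT. The undifferentiated groups did not overlap and the differentiated groups did. Differentiation raised Egln1 by 1.23 on the log2 scale in D1D2KO cells (SE 0.09, limma adjusted p = 3.96e-09) and by 0.98 in WT cells (adjusted p = 1.16e-07). D1D2KO cells were 0.30 lower than WT when undifferentiated (limma adjusted p = 0.0434). That call was lost in 6 of 12 fits without a sample, where adjusted p reached 0.184, and after quantile normalization, at 0.213. In differentiated cells the difference was -0.04 (limma adjusted p = 0.756), and 0.04 after quantile normalization. Egln2, the third hydroxylase of the family and no member of the hypoxia-induced list, was not called in either response: its log2 change was -0.12 in D1D2KO and -0.03 in WT cells (limma adjusted p = 0.318 and 0.809).

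Bnip3, a mitochondrial protein that draws autophagy to mitochondria, had the same order of the 4 group means as Egln3. Its signals were 11.96, 11.96 and 11.84 in D1D2KO differentiated cells and 11.58, 11.59 and 11.71 in WT differentiated cells. In undifferentiated cells they were 7.98, 8.37 and 7.78 in D1D2KO and 9.26, 9.44 and 9.17 in WT. As for Egln3, the genotypes were separate in both states and on opposite sides. The D1D2KO differentiated mean was 11.92 ± 0.07 against 11.63 ± 0.07 in WT, and the D1D2KO undifferentiated mean 8.04 ± 0.30 against 9.29 ± 0.14 in WT (SD, n = 3 each). The differentiated signal was 14.7 times the undifferentiated one in D1D2KO cells and 5.05 times in WT cells, log2 differences of 3.88 and 2.34. The difference between the responses was 1.54 (SE 0.17), 80.8% of it from the undifferentiated state, where the D1D2KO signal was 42.2% of the WT signal. A second probe set of Bnip3 gave 4.01 and 2.41 for the D1D2KO and WT responses, -1.19 for the genotype difference in undifferentiated cells and 0.41 in differentiated cells. Counted from the most positive value of D1D2KO response minus WT response, Egln3 and Bnip3 held the first and the third place among all genes, which is the value that chose them. The most negative value in that contrast, -2.55, was larger in size.

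Bnip3l, the closely related mitophagy receptor, had high signal in every group and moved less. It was 11.00, 10.97 and 10.95 in D1D2KO differentiated cells, against 11.12, 11.10 and 11.09 in WT differentiated cells. Undifferentiated cells gave 10.10, 10.08 and 10.01 in D1D2KO and 10.24, 10.38 and 10.29 in WT. Bnip3l was higher after differentiation by 0.91 in D1D2KO cells (limma adjusted p = 2.29e-08) and by 0.80 in WT cells (adjusted p = 1.68e-07). D1D2KO cells were 0.24 lower than WT when undifferentiated, without passing the test (limma adjusted p = 0.0547), and 0.13 lower when differentiated (adjusted p = 0.234). The undifferentiated difference did pass in 4 of 7 other settings, with adjusted p from 0.0269 to 0.173 over them, and without WT differentiated replicate 2 or D1D2KO differentiated replicate 3. The D1D2KO and WT samples did not overlap in either state.

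**Figure D1:**
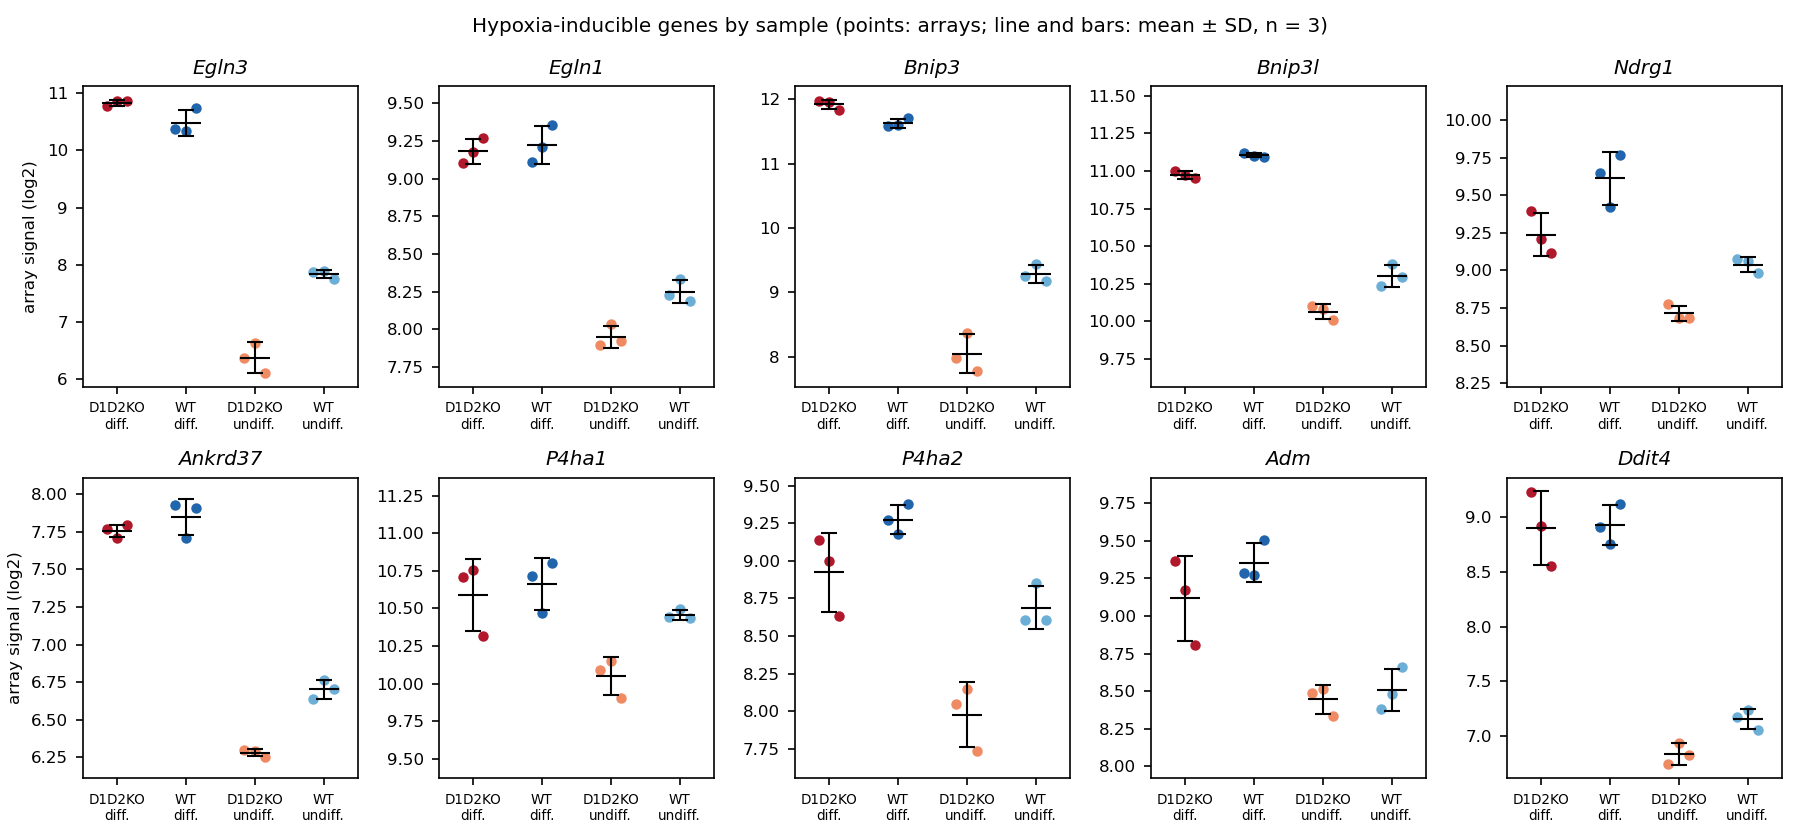
Log2 signal of each of the 10 genes by group, D1D2KO before WT and differentiated before undifferentiated, with points for the 3 samples of a group and lines for their mean ± SD. The scale differs between panels. The D1D2KO undifferentiated points of Egln3 lie between 6.10 and 6.64, below the WT undifferentiated points between 7.76 and 7.89.

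Ankrd37 encodes an ankyrin repeat protein and is a known hypoxia-inducible gene. It measured 7.77, 7.71 and 7.79 in D1D2KO differentiated cells and 7.92, 7.71 and 7.91 in WT differentiated cells. In undifferentiated cells it was 6.30, 6.29 and 6.25 in D1D2KO and 6.64, 6.77 and 6.70 in WT. All 3 D1D2KO undifferentiated values were below all 3 of WT, by 0.42 on average (limma adjusted p = 0.00553), and adjusted p stayed between 0.00248 and 0.0441 without any 1 sample. The response was 1.47 in D1D2KO cells (limma adjusted p = 1.73e-10) and 1.14 in WT cells (adjusted p = 6.12e-09). In differentiated cells the genotypes overlapped, with a difference of -0.09 (limma adjusted p = 0.448) that became 0.01 after quantile normalization.

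P4ha1 and P4ha2 are catalytic alpha subunits of collagen prolyl hydroxylase. P4ha2 measured 9.14, 9.00 and 8.63 in D1D2KO differentiated cells and 9.27, 9.18 and 9.37 in WT differentiated cells, and 8.05, 8.15 and 7.73 in D1D2KO undifferentiated cells against 8.60, 8.85 and 8.60 in WT undifferentiated cells. P4ha2 was lower in D1D2KO in both states without overlap, by 0.71 when undifferentiated (limma adjusted p = 0.00427) and by 0.35 when differentiated (adjusted p = 0.0792, short of the threshold). In the undifferentiated comparison adjusted p stayed between 0.00163 and 0.0352 without any 1 sample. It rose with differentiation by 0.95 in D1D2KO cells (limma adjusted p = 1.26e-05) and by 0.59 in WT cells (adjusted p = 0.00169).

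P4ha1 measured 10.71, 10.75 and 10.32 in D1D2KO differentiated cells and 10.71, 10.47 and 10.80 in WT differentiated cells. In undifferentiated cells it measured 10.09, 10.15 and 9.91 in D1D2KO and 10.44, 10.49 and 10.43 in WT. That difference of -0.41 passed the test (limma adjusted p = 0.0414) and was lost in 6 of 12 fits without a sample, with adjusted p up to 0.181, and after quantile normalization, at 0.0776. Differentiation raised P4ha1 by 0.54 in D1D2KO cells (limma adjusted p = 0.00102). In WT cells the change of 0.21 did not pass (limma adjusted p = 0.190), and the WT differentiated and WT undifferentiated samples overlapped. In differentiated cells the genotypes overlapped, and the difference was -0.07 (limma adjusted p = 0.701), 0.07 without D1D2KO differentiated replicate 3.

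Ndrg1, a growth arrest and differentiation gene of the N-myc downstream regulated family, was lower in D1D2KO cells in both states. It measured 9.39, 9.21 and 9.11 in D1D2KO differentiated cells and 9.65, 9.42 and 9.77 in WT differentiated cells, 0.37 lower on average (limma adjusted p = 0.0188). In undifferentiated cells it was 8.77, 8.69 and 8.69 in D1D2KO and 9.08, 9.06 and 8.98 in WT, 0.32 lower (limma adjusted p = 0.0490). Both separations were complete, but the calls rest on small margins: the undifferentiated one was lost in 8 of 12 fits without a sample, with adjusted p up to 0.167, and after quantile normalization, at 0.192. The differentiated one was lost with only the groups compared in the fit (limma adjusted p = 0.0735) and without WT differentiated replicate 3 or D1D2KO differentiated replicate 2 or 3. Differentiation raised Ndrg1 by 0.52 in D1D2KO cells (limma adjusted p = 0.000287) and by 0.57 in WT cells (adjusted p = 0.000147).

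Ddit4, an inhibitor of mTORC1 signalling that hypoxia, glucocorticoids and other stresses induce, rose strongly. It measured 9.23, 8.92 and 8.56 in D1D2KO differentiated cells and 8.91, 8.76 and 9.12 in WT differentiated cells, and 6.75, 6.94 and 6.83 in D1D2KO undifferentiated cells against 7.17, 7.24 and 7.06 in WT undifferentiated cells. Differentiation raised Ddit4 4.18-fold in D1D2KO cells (log2 2.06, limma adjusted p = 1.72e-09) and 3.42-fold in WT cells (log2 1.77, adjusted p = 1.84e-08). The undifferentiated groups were separate, with D1D2KO 0.32 lower, a difference that missed the threshold (limma adjusted p = 0.138) but passed with only the groups compared (0.0307). In differentiated cells it was -0.03 (limma adjusted p = 0.901) and 0.05 after quantile normalization. Of 13 other genes of the pathway from DDIT4 to mTORC1, 2 rose and 4 fell with differentiation in D1D2KO cells, and 0 rose and 3 fell in WT cells (limma). In the WT response 1 rose without WT differentiated replicate 2, and 1 rose and 4 fell after quantile normalization. At an unadjusted p under 0.05, 2 were higher and 6 lower in the WT response. Over all genes 15.4% rose and 21.2% fell in D1D2KO cells, and 14.7% rose and 19.4% fell in WT cells.

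Adm, the peptide adrenomedullin, was the only one of the 10 genes without a separation between undifferentiated genotypes. It measured 9.37, 9.18 and 8.81 in D1D2KO differentiated cells and 9.29, 9.27 and 9.51 in WT differentiated cells. In the undifferentiated state it was 8.49, 8.51 and 8.33 in D1D2KO undifferentiated cells and 8.38, 8.48 and 8.66 in WT undifferentiated cells, a difference of -0.06 (limma adjusted p = 0.762) that was 0.05 after quantile normalization. It rose by 0.67 in D1D2KO cells (limma adjusted p = 0.000269) and by 0.85 in WT cells (adjusted p = 3.34e-05). In differentiated cells the genotypes overlapped, and the difference was -0.24 (limma adjusted p = 0.194).

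Across the list, the mean of each of the 10 genes was higher after differentiation in both genotypes. In D1D2KO cells the 10 genes all separated the differentiated from the undifferentiated samples, upward, where 21.5% of all genes did. The test called 8 of the 8 tested genes higher, where 15.4% of all 19938 genes were called higher and 21.2% lower, and the median log2 change over the 10 was 1.09 against 0.01 over all genes. Without the picked Egln3 and Bnip3, all 8 separated upward and the median was 0.93. All 10 genes lie among the 9969 genes above the median signal, of which 25.1% were called higher in D1D2KO and 22.0% in WT cells. In WT cells 9 of the 10 separated upward, where 19.9% of all genes did, and 7 of 8 were called higher, where 14.7% of all genes were called higher and 19.4% lower. P4ha1 was the exception in both counts. Without Egln3 and Bnip3, 7 of the 8 separated upward in WT cells.

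In undifferentiated cells all 10 genes had a lower mean in D1D2KO than in WT, though Adm turned to 0.05 after quantile normalization. In 9 of the 10, all but Adm, the D1D2KO and WT samples did not overlap, where 19.6% of all genes were separated that way, and 5 of 8 passed the test (Egln1, Ndrg1, Ankrd37, P4ha1 and P4ha2), where 3.62% of all genes were called lower and 4.4% higher. Over all genes 54.9% of these calls were upward, 38.4% after quantile normalization and 44.7% with arrays centred on their medians. Among the genes above the median signal, where the 10 lie, downward differences were more common: 34.0% separated downward, 6.73% were called lower and 2.11% higher, 23.8% of the calls were upward, and the median difference was -0.08. The 5 calls fell to 2, Ankrd37 and P4ha2, after quantile normalization and without WT undifferentiated replicate 1 or 2 or any D1D2KO undifferentiated replicate, and to 3 without WT undifferentiated replicate 3 or D1D2KO differentiated replicate 2. They were 7 with only the groups compared, and 6 with median centring, with genes above the median signal and with trended variance. The median difference was -0.37 in the 10 and 0.02 over all genes. Egln3 and Bnip3 were picked by their responses, which include this difference. Without them, 7 of the other 8 genes separated downward, and their median was -0.32. In differentiated cells 8 of the 10 had a lower mean in D1D2KO, Egln3 and Bnip3 a higher one, and 1 of 8 passed the test (Ndrg1), where 7.42% of all genes were called lower and 6.25% higher. The samples did not overlap for Egln3 and Bnip3 in the upward direction, where 16.7% of all genes separated, and for Bnip3l, Ndrg1 and P4ha2 in the downward one, where 14.2% did. Among the genes above the median signal 24.7% separated downward, 17.0% were called lower and 5.13% higher, and the median difference was -0.08, the same to 2 decimals as that of the 10. The median of the 8 without Egln3 and Bnip3 was -0.11. The D1D2KO response minus the WT response was positive in 8 of the 10 and negative in Ndrg1 and Adm (-0.05 and -0.17), with a median of 0.31. Without Egln3 and Bnip3 it was positive in 6 of 8, with a median of 0.27. This contrast chose the genes, so these values carry no test. Limma called 1.46% of all genes in either direction, a share that cannot be set against counts of signs. The responses and the genotype comparisons share samples, since D1D2KO undifferentiated cells enter both the D1D2KO response and the comparison before differentiation.

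**Figure D2:**
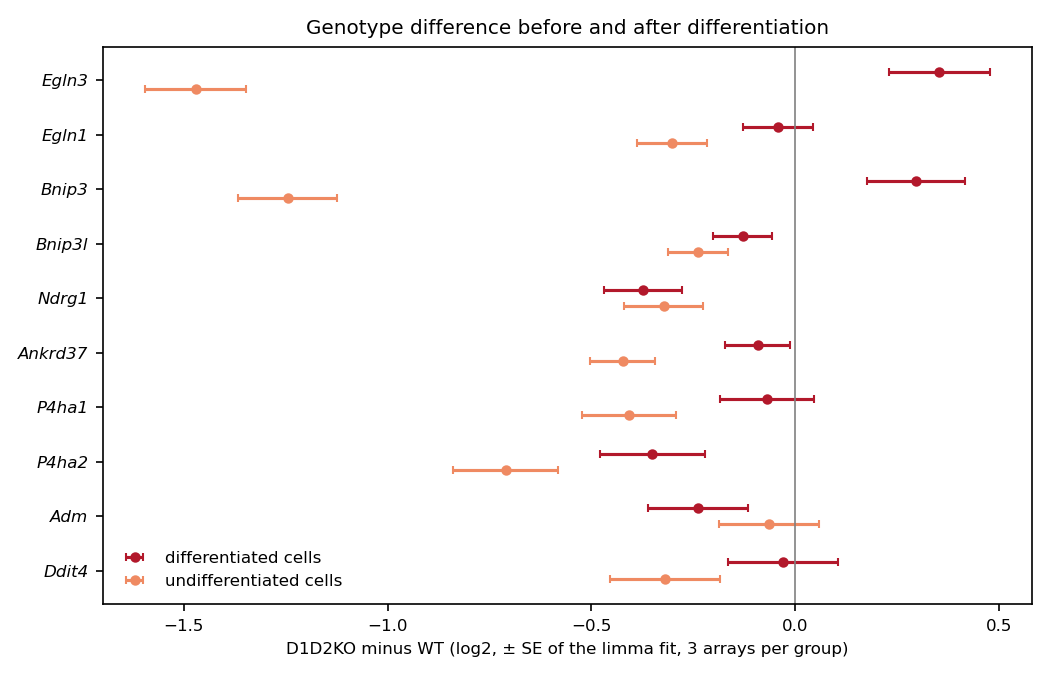
D1D2KO minus WT signal of the 10 genes on the log2 scale in differentiated cells (upper point of each pair) and undifferentiated cells (lower point), with bars for the fitted SE and 3 arrays in each group. All 10 undifferentiated points lie below 0 (Adm turned above 0 after quantile normalization), the lowest being Egln3 at -1.47, and the 2 differentiated points to the right of 0 are Egln3 and Bnip3.

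Genes of the same pathway were taken from lists chosen with earlier results of these data known. Of 44 other hypoxia-inducible genes measured, glycolysis enzymes set aside, 31 rose and 9 fell with differentiation in D1D2KO cells, and 29 rose and 7 fell in WT cells. The shares over all genes were 15.4% and 21.2% in D1D2KO cells and 14.7% and 19.4% in WT cells. In undifferentiated cells 16 of the 44 were lower in D1D2KO and 2 higher, with a median of -0.24. Among all genes 3.62% were called lower and 4.4% higher, and among those above the median signal 6.73% and 2.11%. The count of lower genes was 7 without WT undifferentiated replicate 2, 8 without D1D2KO undifferentiated replicate 3 and 14 after quantile normalization. Lower calls over all genes went from 722 to 239, 253 and 514 in these settings. Fam162a, a mitochondrial protein, was 0.94 lower in D1D2KO (limma adjusted p = 4.62e-05) and Higd1a, which acts at the respiratory chain, was 0.93 lower (adjusted p = 4.62e-05). Fam162a measured 8.78, 9.07 and 8.64 in D1D2KO undifferentiated cells and 9.58, 9.96 and 9.78 in WT. Car9, the carbonic anhydrase often used as a marker of hypoxia, was 0.88 lower in undifferentiated cells (limma adjusted p = 2.21e-05) and 0.52 lower in differentiated cells (adjusted p = 0.00172). Car9 was not among the genes above the median signal. Lox, the collagen crosslinking enzyme, had a difference of -0.01 in undifferentiated cells. In differentiated cells 8 of the 44 were lower (5 with only the groups compared) and 2 higher, with a median of -0.04. Of all genes 7.42% were called lower and 6.25% higher there. Among the genes above the median signal 17.0% were called lower and 5.13% higher, so the count of 8 among 44 is close to that share. Pfkfb3, which sets the level of a glycolysis activator, was 0.59 higher in D1D2KO differentiated cells (limma adjusted p = 0.000470).

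Glycolysis enzymes are genes that hypoxia-inducible factors are known to raise. Of 13 measured, 8 were lower in D1D2KO than in WT undifferentiated cells with a median of -0.41, and the count was 5 without WT undifferentiated replicate 2 or D1D2KO undifferentiated replicate 3. Calls of lower made up 3.62% of all genes in that comparison. Pfkp was 1.03 lower (limma adjusted p = 4.48e-05), Pfkl 0.89 lower (adjusted p = 0.00366), Tpi1 0.68 lower (adjusted p = 0.00226) and Pgk1 0.61 lower (adjusted p = 0.000736). Hk1 was at -0.08 and did not pass (limma adjusted p = 0.557). With differentiation, 9 of the 13 rose in each genotype and 0 fell by limma, while 1 fell in D1D2KO cells without D1D2KO differentiated replicate 1, and 0 fell in D1D2KO and 1 fell in WT cells at an unadjusted p under 0.05. The median change was 1.43 in D1D2KO and 0.89 in WT cells. Limma called 15.4% of all genes higher in D1D2KO and 14.7% in WT cells. In differentiated cells limma called 0 of the 13 between genotypes, with 3 at an unadjusted p under 0.05, and 1 without D1D2KO differentiated replicate 3 or WT differentiated replicate 2, after quantile normalization, among genes above the median signal and with trended variance. Pgk1 differed by 0.05. Over all genes 7.42% were called lower and 6.25% higher in that comparison.

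Genes that control the hypoxia-inducible factors, such as their subunits and the VHL ligase, gave no call between the undifferentiated genotypes. Of 17 such regulators limma called 0, with 4 at an unadjusted p under 0.05, of which 3 were lower in D1D2KO, and 1 was called higher without WT differentiated replicate 1 or 2. Over all genes 3.62% were called lower and 4.4% higher, so 0 calls among 17 genes is close to that share. Hif1a, the alpha subunit in most cells, measured 10.07, 10.02 and 10.04 in D1D2KO undifferentiated cells and 10.17, 10.15 and 10.22 in WT undifferentiated cells, a difference of -0.14 (limma adjusted p = 0.284). It fell by 1.03 with differentiation in D1D2KO cells (limma adjusted p = 2.53e-08) and by 0.74 in WT cells (adjusted p = 1.87e-06), while Egln3 and Bnip3 signals were higher. In differentiated cells Hif1a was 8.97, 9.05 and 9.03 in D1D2KO and 9.33, 9.61 and 9.37 in WT, 0.42 lower (limma adjusted p = 0.00374). Epas1, the second alpha subunit, rose by 0.62 in D1D2KO cells (limma adjusted p = 2.01e-05) and by 1.05 in WT cells (adjusted p = 6.44e-08). These values are of transcripts, whose level does not give the amount of protein.

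Other families of the members were looked at in the same way. Of 23 other mitophagy and autophagy genes limma called 0 between undifferentiated genotypes, with 3 at an unadjusted p under 0.05, all lower in D1D2KO. With 3.62% of all genes called lower and 4.4% higher there, 0 calls among 23 genes is close to the share over all genes. Of 12 other genes for collagen prolyl and lysyl hydroxylation, 9 fell and 2 rose with differentiation in D1D2KO cells, and 7 fell and 2 rose in WT cells, where 3 fell without WT undifferentiated replicate 1. Among all genes 21.2% fell and 15.4% rose in D1D2KO cells, and 19.4% fell and 14.7% rose in WT cells. P4ha3, a related alpha subunit, fell by 1.59 in D1D2KO cells (limma adjusted p = 9.65e-09) and by 0.72 in WT cells (adjusted p = 0.000138). In differentiated cells 6 of the 12 were lower in D1D2KO, 3 without WT differentiated replicate 2. Of all genes 7.42% were called lower there, and 17.0% of those above the median signal.

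**Figure D3:**
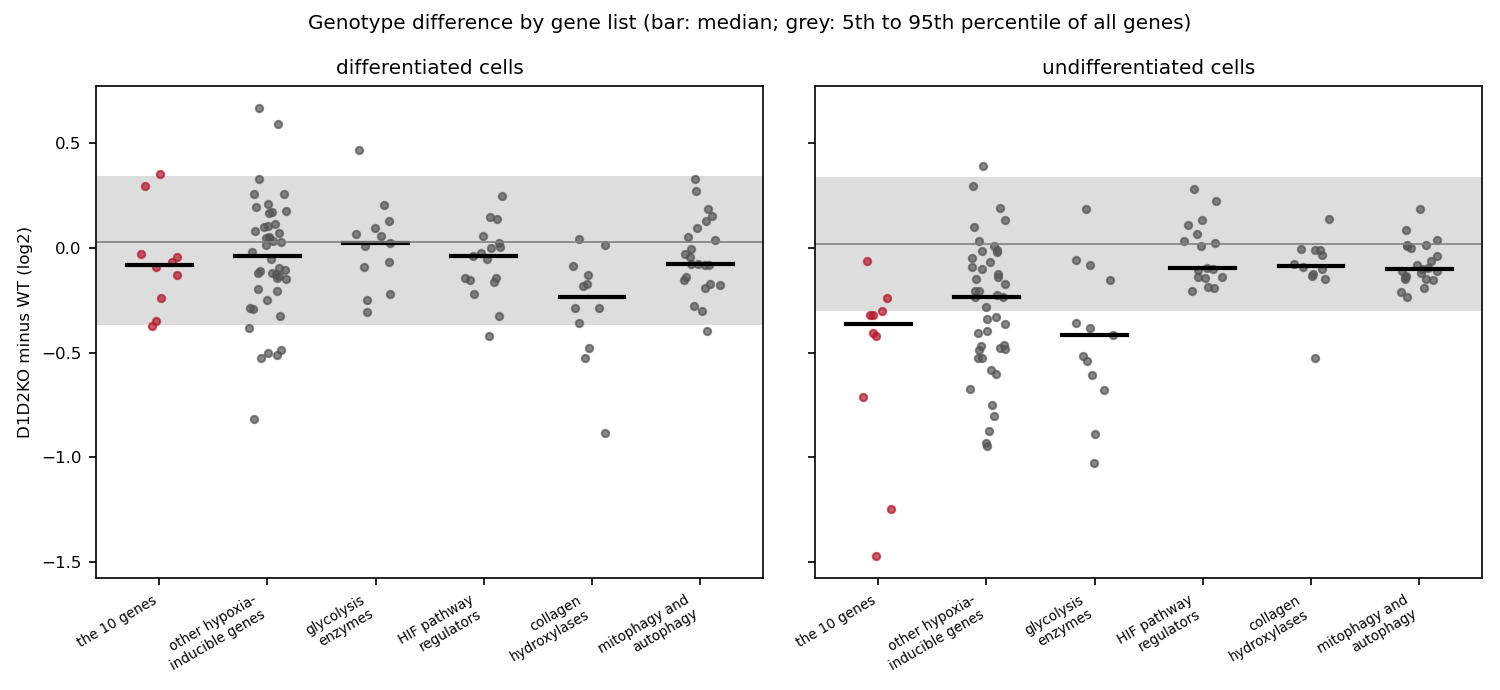
D1D2KO minus WT difference on the log2 scale for the genes of each list (points) with the list's median (black bar), in differentiated cells (left panel) and undifferentiated cells (right panel), with the grey band from the 5th to the 95th percentile of all genes and a grey line at their median. In undifferentiated cells the bar of the glycolysis enzymes lies at -0.41 and that of the other hypoxia-inducible genes at -0.24.

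The genes whose profiles over the 12 samples lay nearest to Egln3 and Bnip3 were found by the root mean square difference of log2 values after each gene's mean was subtracted. Nearest to Egln3 were Bnip3 at 0.26, then Pygl, glycogen phosphorylase of liver type, Rbp4, retinol binding protein, Aoc3, an amine oxidase of adipocytes, and Gbe1, the glycogen branching enzyme, at 0.33 to 0.41. Nearest to Bnip3 were Pygl at 0.25, Egln3, Aoc3, Plaat3, a phospholipase of adipocytes, and Cav2, a caveolin. Gbe1 is also on the list of other hypoxia-inducible genes described above. None of the other 8 members of the set was near: the nearest to Egln3 among them was Ddit4, at place 171 of all genes, and to Bnip3 likewise Ddit4, at place 142. The measure also counts the size of the change. Egln3 and Bnip3 themselves set aside, the nearest profiles were all lower in D1D2KO undifferentiated cells, from Pygl at -0.93 to Cav2 at -0.45. The differences there were -1.47 in Egln3 and -1.25 in Bnip3. In differentiated cells the differences of these nearest profiles ran from -0.12 for Pygl to 0.56 for Cav2. The likeness of these genes to Egln3 and Bnip3 follows from how they were found.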

How the data were processed

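The 12 arrays were analysed from the deposited table of 35556 probe sets. Its values, from 1.15 to 14.17, were taken as log2 signals: the authors deposited them without a stated scale, the base is inferred from the values, and the authors' summary and normalization of the scans are not given in the sources used here. Column medians lay between 5.61 and 5.69. No detection calls, scanner files or scan times were used, so a low signal cannot be told from background, and the number of arrays limits the precision.

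Probe sets with exactly 1 annotated gene (21789) were kept, 1 per gene by the highest mean over all samples, which left 19938 genes. The 4 group means were fitted over all 12 samples with limma 3.58.1 in R 4.3.3 (lmFit, eBayes), two-sided, with Benjamini-Hochberg adjustment over all genes and a threshold of 0.05, after the scripts were tested on simulated data. Adjusted p-values in the text come from this fit. The genes and the gene lists were chosen with earlier results of these data known. From each list the text may name up to 4 called genes with the widest change and 2 uncalled genes with the highest signal per comparison.

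Samples with the same number were checked for pairing by the correlation of their deviations from group means. All pairs exceeded 0.1 only between D1D2KO differentiated and undifferentiated cells (0.101 to 0.176). Elsewhere the range was -0.233 to 0.184. Alternatives were quantile normalization, median centring, keeping only genes above the median signal, averaging the probe sets of each gene, fitting only the groups compared, trended variance, the replicate block and each sample left out. Promoter windows came from a RefSeq table on GRCm38.p6.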

Additional observations from a re-analysis of the deposited data

Results flagged for a closer look

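The responses of Egln3 and Bnip3 to differentiation differed between the genotypes by 1.82 and 1.54 on the log2 scale, D1D2KO minus WT. This is the contrast that chose both genes, so the values are a description and carry no test. Without any 1 of the 12 samples they lay between 1.69 and 1.96 for Egln3 and between 1.41 and 1.71 for Bnip3. These ranges come from the same samples that chose the genes, so they give no support of their own.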

How the results depend on the processing

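Every tested call of the 8 genes other than Egln3 and Bnip3 in the responses of both genotypes was the same in all settings tried. The genotype comparison of undifferentiated cells depended on the setting: its 1600 called genes were 834 after quantile normalization, 881 among genes above the median signal and 2597 with only the groups compared, and ranged from 339 (without WT undifferentiated replicate 2) to 1967 when samples were left out. Of the 8, 5 were called lower there, 2 after quantile normalization, 7 with only the groups compared, 6 with median centring, genes above the median signal and trended variance, and 2 to 6 when samples were left out. In differentiated cells the 2726 called genes were 1184 with only the groups compared, and 1344 (without WT differentiated replicate 2) to 2822 when samples were left out. The 1 gene called lower there became 0 with only the groups compared and 0 to 2 without single samples. The 291 genes whose response differed by genotype were 537 among genes above the median signal, 472 with trended variance, and 159 to 449 without single samples. The share of promoters with a motif was 43.8% over the window and 38.6% over the 250 bases before the start. After quantile normalization the sign turned for Egln1 (0.041), Ankrd37 (0.013) and Ddit4 (0.050) in differentiated cells and Adm (0.047) in undifferentiated cells. Without single samples the genotype difference ranged from -0.10 to 0.024 for Egln1, -0.17 to 0.068 for P4ha1 and -0.19 to 0.14 for Ddit4 in differentiated cells, and from -0.13 to 0.013 for Adm in undifferentiated cells. The cause was not tested. A fit with only the groups compared was not run for the difference between responses.

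With the replicate block 7460 genes were called in the D1D2KO response, 6932 in the WT response, 1922 between undifferentiated and 3070 between differentiated genotypes, and 254 for the difference between responses. The block changed no call of the 8 genes.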

Other observations

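In some samples most of the 10 genes lay on one side of their group means. In D1D2KO undifferentiated replicate 3 all 10 were below their group mean, with a median of -0.08 on the log2 scale and Egln3 at -0.27, and in WT differentiated replicate 2 all 10 were below it, with a median of -0.12. Above their group means were 9 of the 10 in D1D2KO undifferentiated replicate 2 (median 0.09, Bnip3 at 0.33), in WT differentiated replicate 3 (median 0.14, Egln3 at 0.26) and in WT undifferentiated replicate 2 (median 0.07), and 9 of the 10 were below it in WT undifferentiated replicate 3 (median -0.06).

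Of 12 glucocorticoid-responsive genes other than the 10, 8 rose and 2 fell with differentiation in D1D2KO cells, and 6 rose and 1 fell in WT cells, after a treatment that began with dexamethasone. Their genotype difference had a median of -0.19 in undifferentiated cells, where 3 of the 12 were called lower in D1D2KO. Among all genes 15.4% rose and 21.2% fell in D1D2KO cells, 14.7% rose and 19.4% fell in WT cells. Between undifferentiated genotypes 3.62% of all genes were called lower. Between differentiated genotypes 4 of the 12 were called lower in D1D2KO and 0 higher, with a median of -0.07. Calls of lower made up 7.42% of all genes there, and 17.0% of those above the median signal.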
